A study of Drosophila melanogaster with 8 samples.

Results

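The vacuolar H+-ATPase (V-ATPase) is represented here by its 33 *Vha* genes, all entries of the table of gene levels whose symbol starts with *Vha*, out of 14207 entries. RNA was sequenced from 8 subsections of the midgut of feeding *Drosophila melanogaster* larvae of the third instar, with 1 library per subsection: the anterior midgut gave M1, M2 and M3–5, the middle midgut M6 and M7–8, and the posterior midgut M9, M10–11 and M12–13. Values are given below in that order, and positions on the genome of FlyBase release 5. The labels give the strain as w1118 for all 8 libraries. Per the study's methods, the larvae came from a cross of flies with a *Cyp4d2*-GAL4 transgene to w1118 flies with a nuclear UAS-GFP, so that every subsection carried both transgenes and the GFP bands served as guides for dissection. Tissue was pooled from many larvae. Levels are given in FPKM, the authors' measure of fragments scaled for transcript length and library. Differences between libraries still went with transcript length, as given below. Levels of genes of unlike length are therefore set side by side only with that limit. No subsection was sampled more than once, so no difference between subsections was tested, and a share of RNA in whole dissected tissue cannot tell fewer cells of a type from less RNA per cell.

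The V-ATPase is a rotary proton pump. Its V1 sector, on the cytosolic side, hydrolyses ATP, and its V0 sector carries protons through the membrane. The pump acidifies endosomes and lysosomes in most cells, and in some epithelia it is placed in the plasma membrane, where it acidifies or energizes the fluid outside the cell; subunit a takes part in that placement and exists in several isoforms. In the larval midgut of *Drosophila* the acid section is made by the copper cells of the middle midgut.

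Levels of the libraries bear on every value below. The summed FPKM of a library lay between 542365 in M12–13 and 1806160 in M2, and the median ratio of a library to the geometric mean of all 8 was 0.774 in M6 and 0.994 to 1.08 elsewhere. The study's methods give fewer reads and a greater tendency to RNA degradation for M6. The labelled subsections were checked with the middle midgut factors *lab*, *dve* and *Ptx1*, whose summed level reached 93.7 (M6) and 124 FPKM (M7–8), with at most 7.82 FPKM elsewhere; *lab*, which specifies copper cells, was at 32.9 FPKM in M6, 5.40 in M7–8 and 2.53 in M3–5 and below 1 FPKM in the other libraries. Markers of other tissues were low for salivary gland (6 of 6 genes listed, summed level 0 to 0.871 FPKM), hemocytes (4 of 4, 0.123 to 0.932) and Malpighian tubules (5 of 6, 1.15 to 7.20, highest in M12–13). Fat body markers (5 of 5) summed to between 0.124 and 26.3 FPKM with the highest sum in M1, and muscle markers (5 of 5) to between 433 FPKM in M6 and 1489 FPKM in M12–13. Their part in the *Vha* levels was not tested.

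The 33 genes fell into 4 classes. A gene was taken as detected when its FPKM summed over the 8 subsections to at least 1, and 23 of the 33 *Vha* genes were, against 9156 of all 14207 entries. Of these, 19 were broadly expressed, with at least 1 FPKM in every subsection, as were 6003 of all entries. A single gene, *Vha100-4*, was confined to M6, with at least 80% of its summed FPKM there. The remaining detected genes, *Vha68-3*, *VhaM9.7-a* and *VhaAC39-2*, were low or patchy, and 10 genes were not detected. Near the limits, *Vha36-3* summed to 0.662 FPKM and *Vha68-3* to 3.61 FPKM, and the lowest level was 1.84 FPKM for *Vha68-1* and 0.210 FPKM for *VhaM9.7-a*. For the limit on M6, *Vha100-4* had 93.2% of its summed FPKM there and the next gene, *Vha26*, 21.0%.

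**Figure D1:**
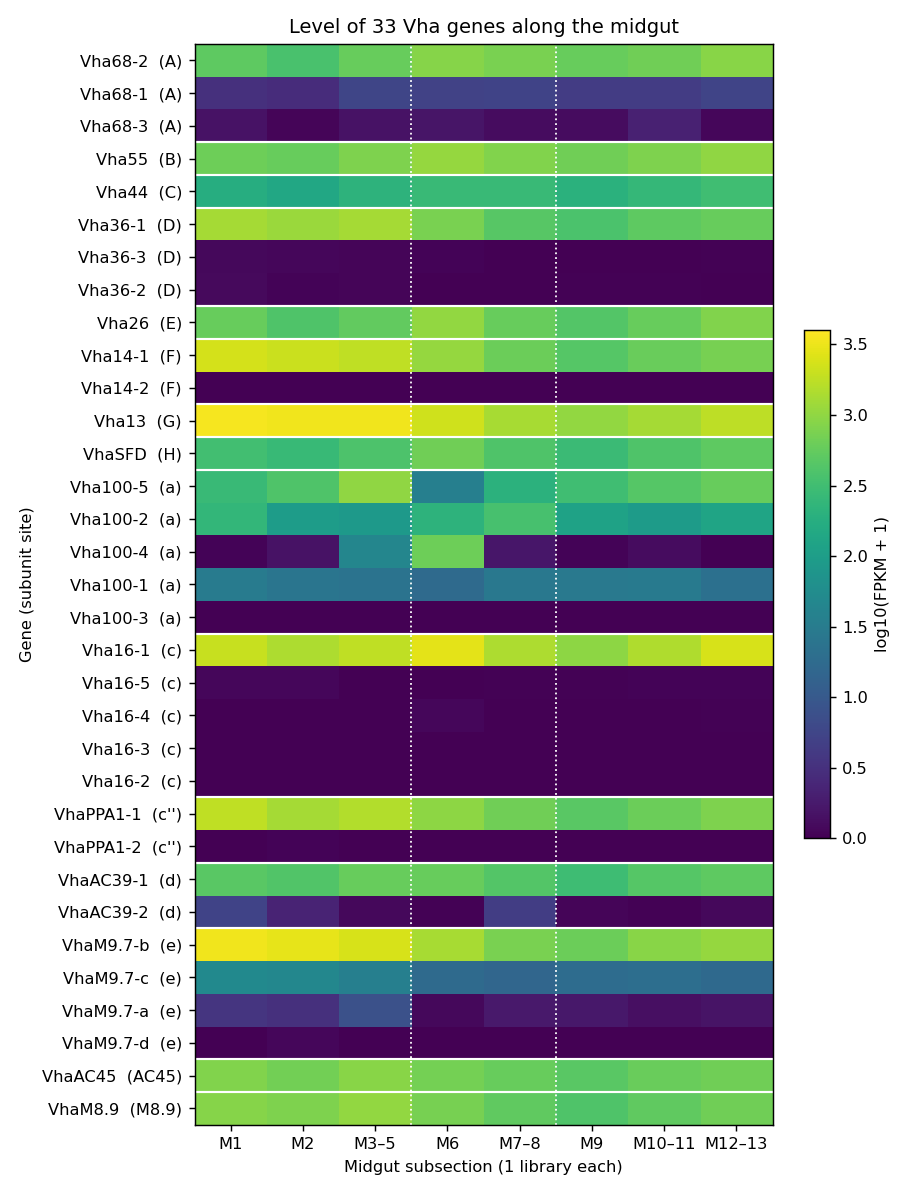
Level of the 33 *Vha* genes (rows, grouped by subunit, V1 sites A to H above V0 sites a to e and the accessory genes) in the 8 subsections (columns, 1 library each, dotted lines between the anterior, middle and posterior midgut), as log10(FPKM + 1). For every site except a, 1 gene is bright across all subsections and any paralog is far darker, whereas at site a the bright gene changes along the midgut.

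Most broad *Vha* genes were highly expressed. Of the 19 broadly expressed genes, 16 had a mean of at least 100 FPKM over the 8 subsections. The mean of *Vha13* was 2230.3 FPKM, higher than that of 99.5% of all entries, and the mean of *Vha44*, which was lower, 230.4 FPKM, still exceeded that of 96.2%. Together the 33 genes held between 0.878% of the summed FPKM in M9 and 2.49% in M12–13, with 2.23% in M6 and 1.18% in M1. The median level of the 19 broad genes was lowest in M9, at 411 FPKM, and highest in M3–5, at 813 FPKM, while the median of all broadly expressed genes was between 14.0 and 14.9 FPKM in 7 subsections and 9.50 FPKM in M6.

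The V1 sector is built on a ring of alternating subunits A and B, which bind ATP. Subunit A, which holds the catalytic site, is encoded by 3 neighboring genes on chromosome 2L. The level of *Vha68-2* (FBgn0263598, chromosome 2L, 12974322 to 12978607) was 504, 369 and 584 FPKM from M1 to M3–5, 891 FPKM in M6, 749 FPKM in M7–8, and 573, 662 and 899 FPKM from M9 to M12–13. Its level was highest at the posterior end and in M6 and lowest in M2. The second gene, *Vha68-1* (FBgn0265262, chromosome 2L, 13000770 to 13004107), was at 2.13, 1.84 and 4.70 FPKM from M1 to M3–5, 4.18 FPKM in M6, 4.37 FPKM in M7–8, and 3.30, 3.43 and 4.44 FPKM from M9 to M12–13. *Vha68-3*, which starts 178 bases after *Vha68-2* ends, was between 0.112 FPKM in M2 and 1.16 FPKM in M10–11. *Vha68-2* thus accounted for between 99.1% and 99.5% of the subunit A level in every subsection.

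Subunit B is encoded by *Vha55* alone (FBgn0005671, chromosome 3R, 8449484 to 8453551), and its level was 648, 572 and 813 FPKM from M1 to M3–5, 1062 FPKM in M6, 828 FPKM in M7–8, and 658, 802 and 989 FPKM from M9 to M12–13. This was among the flattest of the patterns, with a 1.85-fold range and its highest value in M6. The authors' interval for M6 ran from 0 to 7191 FPKM. For all 33 genes in all 8 subsections the 95% intervals of the authors, made without replicates, began at 0, so none of them separates a pair of subsections.

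The stalks of the V1 sector showed larger differences along the midgut. Subunit D, part of the rotating central shaft, was supplied by *Vha36-1* (FBgn0022097, chromosome 2R, 11428940 to 11430003) at 1303, 1140.4 and 1310.3 FPKM from M1 to M3–5, 745 FPKM in M6, 459 FPKM in M7–8, and 379.7, 509 and 576 FPKM from M9 to M12–13. Subunit F, the other part of the shaft, was supplied by *Vha14-1* (FBgn0262512, chromosome 2R, 11566931 to 11567589) at 2299.7, 2050.5 and 1798 FPKM from M1 to M3–5, 1062 FPKM in M6, 612 FPKM in M7–8, and 440.2, 597 and 728 FPKM from M9 to M12–13. On the authors' scale both genes of the shaft were higher in each of the 3 anterior subsections than in M6. Both were also higher in M6 than in each of the 4 subsections behind it. With each library rescaled to the same summed FPKM, *Vha36-1* was highest in M12–13 and *Vha14-1* in M6.

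In the outer stalk, which holds the ring still, subunit G is encoded by *Vha13* (FBgn0026753, chromosome 3R, 15468980 to 15470108) and subunit E by *Vha26* (FBgn0015324, chromosome 3R, 1417485 to 1420421). *Vha13* was at 3536, 3291 and 3383 FPKM from M1 to M3–5, 2190.3 FPKM in M6, 1341 FPKM in M7–8, and 1039, 1318 and 1744 FPKM from M9 to M12–13. Its mean was the highest of the 33 genes. *Vha26* was at 572, 400.3 and 545 FPKM from M1 to M3–5, 1045 FPKM in M6, 572 FPKM in M7–8, and 435, 572 and 836 FPKM from M9 to M12–13. The partners of the outer stalk therefore had different profiles: *Vha13* was highest in M1 and *Vha26* in M6, where it was 2.61-fold above its lowest value, in M2.

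Subunits C and H are regulatory: C links V1 to V0 and leaves the complex when the sectors come apart, and H silences free V1. *Vha44*, the gene of subunit C (FBgn0262511, chromosome 2R, 12212318 to 12228747), was at 176, 143 and 213 FPKM from M1 to M3–5, 277 FPKM in M6, 273 FPKM in M7–8, and 199.6, 251 and 312 FPKM from M9 to M12–13. *VhaSFD*, the gene of subunit H (FBgn0027779, chromosome 2L, 16722883 to 16727826), was at 324, 264 and 393 FPKM from M1 to M3–5, 659.8 FPKM in M6, 405 FPKM in M7–8, and 287, 399.8 and 511 FPKM from M9 to M12–13. Like *Vha55* and *Vha68-2*, both were lowest in M2, and *VhaSFD* was highest in M6. The entry of *Vha44* overlaps that of *Hmgs*. *Vha44* was the least abundant of the V1 genes that supply a site.

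In the V0 sector, protons cross on a ring of subunits c and c''. Subunit c, the proteolipid, came from *Vha16-1* (FBgn0262736, chromosome 2R, 2512747 to 2520595), at 1985, 1435 and 1824 FPKM from M1 to M3–5, 2837 FPKM in M6, 1418 FPKM in M7–8, and 961, 1479 and 2445 FPKM from M9 to M12–13. M6 and M12–13 were the highest libraries and M9 the lowest, and M6 was 2.0-fold above M7–8. Its 4 paralogs were not detected: *Vha16-2* and *Vha16-3* were listed at 0 in every subsection, and *Vha16-4* and *Vha16-5* had means of 0.0263 and 0.0711 FPKM. Subunit c'' came from *VhaPPA1-1* (FBgn0028662, chromosome 3R, 10728048 to 10729796), at 1777, 1296 and 1521 FPKM from M1 to M3–5, 987 FPKM in M6, 666 FPKM in M7–8, and 483, 613 and 805 FPKM from M9 to M12–13, with M1 highest and M9 lowest. Its neighbor *VhaPPA1-2*, 2048 bases away on the same strand, had a level above 0 in M2 alone, and its mean was 0.0122 FPKM.

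The other V0 subunits are d, which couples the shaft to the ring, and e, a small membrane protein. *VhaAC39-1* (FBgn0028665, chromosome X, 3774781 to 3777000) supplied subunit d at 472, 419 and 582 FPKM from M1 to M3–5, 581 FPKM in M6, 426 FPKM in M7–8, and 303, 446 and 514 FPKM from M9 to M12–13, and its range, 1.92-fold, was close to that of *Vha55*. *VhaAC39-2* was patchy: 4.33, 1.29 and 0.194 FPKM from M1 to M3–5, 0.0579 FPKM in M6, 3.45 FPKM in M7–8, and 0.113, 0.0549 and 0.212 FPKM from M9 to M12–13. It was above 1 FPKM in M1, M2 and M7–8, and in no subsection did it reach 1% of the subunit d level.

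Subunit e was supplied by *VhaM9.7-b* (FBgn0028663, chromosome 3L, 21532962 to 21534315) at 3291, 2883 and 2415 FPKM from M1 to M3–5, 1341 FPKM in M6, 753 FPKM in M7–8, and 622, 907 and 1065 FPKM from M9 to M12–13. This was the steepest fall from front to back among V0 genes with a mean of at least 100 FPKM, 5.29-fold between M1 and M9. *VhaM9.7-c* (FBgn0028664, chromosome 3L, 4173884 to 4193788) was likewise highest in the 3 anterior subsections, at a far lower level, between 14.2 FPKM in M7–8 and 50.5 FPKM in M1; its entry overlaps 5 others, *CG18675*, *Teh2*, *Teh3*, *Teh4* and *tipE*. *VhaM9.7-a* was low: 2.61, 2.18 and 6.87 FPKM from M1 to M3–5, 0.210 FPKM in M6, 0.757 FPKM in M7–8, and 0.703, 0.385 and 0.559 FPKM from M9 to M12–13, with its 3 highest values in the anterior midgut.

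The accessory genes were broadly expressed, with a 1.92-fold range for *VhaAC45* and a 2.56-fold range for *VhaM8.9*. *VhaAC45*, whose product assists the assembly of V0, was at 828, 675 and 922 FPKM from M1 to M3–5, 706 FPKM in M6, 584 FPKM in M7–8, and 479.8, 594 and 669 FPKM from M9 to M12–13. *VhaM8.9*, the fly gene of the (pro)renin receptor, a V0-associated protein, was at 869, 803 and 1052 FPKM from M1 to M3–5, 721 FPKM in M6, 528 FPKM in M7–8, and 411, 524 and 661 FPKM from M9 to M12–13. Both were highest in M3–5 and lowest in M9.

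Subunit a was the exception to the rule of 1 leading gene per site. It offers the channels by which protons enter and leave the ring, and it is encoded by 5 genes, 4 of them detected. *Vha100-4* (FBgn0038613, chromosome 3R, 14211550 to 14215525) was at 0.0866, 0.496 and 44.2 FPKM from M1 to M3–5, 632 FPKM in M6, 0.627 FPKM in M7–8, and 0.0971, 0.302 and 0.0302 FPKM from M9 to M12–13. Its level in M6 was 14.3-fold that in M3–5, the adjoining subsection in front, and 1009-fold that in M7–8, behind. M3–5 in turn was 89.1-fold above M2, and in the remaining 6 subsections the gene stayed below 1 FPKM. The paper judges its dissection adequate, and names RNA from neighboring subsections in a sample as possible. The copper cell factor *lab* was at 2.53 FPKM in M3–5 and 32.9 FPKM in M6. Whether M6 tissue gave part of the *Vha100-4* level in M3–5 was not tested. The upper ends of the authors' intervals were 101 FPKM in M3–5, 2248 FPKM in M6 and 1.90 FPKM in M7–8.

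*Vha100-5* (FBgn0032373, chromosome 2L, 11738948 to 11744524) was at 271, 405 and 1016 FPKM from M1 to M3–5, 34.3 FPKM in M6, 206 FPKM in M7–8, and 309, 443 and 574 FPKM from M9 to M12–13. It went opposite to *Vha100-4* from M3–5 to M6 and from M6 to M7–8: M3–5 was its highest value and M6 its lowest, 29.6-fold apart, and M7–8 was 6.0-fold above M6. The upper end of the authors' interval in M6, 98.1 FPKM, lay below the deposited level of each other subsection; the lower ends of those intervals were at 0.

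*Vha100-2* lies next to *Vha100-4* on the same strand (FBgn0028670, chromosome 3R, 14216045 to 14226061), 519 bases apart with no other entry between them. Its level was 245, 98.0 and 85.5 FPKM from M1 to M3–5, 211 FPKM in M6, 357 FPKM in M7–8, and 117, 93.1 and 126 FPKM from M9 to M12–13. It had another kind of profile, with high values in M7–8, M1 and M6; M7–8 was 1.69-fold above M6, 3.05-fold above M9 and 4.17-fold above M3–5. Between M6 and M7–8 the neighbors thus went in opposite directions. With each library divided by its median ratio, *Vha100-2* was at 272 FPKM in M6 and 331 FPKM in M7–8. That is a smaller difference in the same direction.

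*Vha100-1* (FBgn0028671, chromosome 3R, 24956915 to 24964295) was at 30.4, 23.9 and 22.5 FPKM from M1 to M3–5, 16.7 FPKM in M6, 26.9 FPKM in M7–8, and 27.8, 29.8 and 20.6 FPKM from M9 to M12–13. On the authors' scale this was a low and even level with M6 lowest. M2 was lowest with libraries rescaled to the same summed FPKM, and M12–13 with libraries divided by their median ratio. *Vha100-3* was listed above 0 in M3–5 alone and had a mean of 0.00148 FPKM. The entries of *Vha100-1*, *Vha100-2*, *Vha100-3* and *Vha100-4* each overlap another entry (*CG14512*, *CG44009*, *sano* and *cona*). The libraries were not stranded, so that reads from opposite strands of an overlap cannot be told apart in these genes, in *VhaM9.7-c* or in *Vha44*.

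Shares within subunit a do not depend on how the libraries were scaled. *Vha100-4* accounted for 0.0159%, 0.0940% and 3.78% from M1 to M3–5, 70.7% in M6, 0.106% in M7–8, and 0.0214%, 0.0534% and 0.00419% from M9 to M12–13 of the summed subunit a level. *Vha100-5* accounted for 49.6%, 76.8% and 87.0% from M1 to M3–5, 3.83% in M6, 34.9% in M7–8, and 68.1%, 78.3% and 79.7% from M9 to M12–13. *Vha100-5* therefore led in 6 subsections, *Vha100-4* in M6 and *Vha100-2* in M7–8. The share of *Vha100-2* was 44.8%, 18.6% and 7.32% from M1 to M3–5, 23.6% in M6, 60.5% in M7–8, and 25.7%, 16.4% and 17.5% from M9 to M12–13, and that of *Vha100-1* was between 1.87% and 6.12%. In M1, *Vha100-5* and *Vha100-2* were close to equal.

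**Figure D2:**
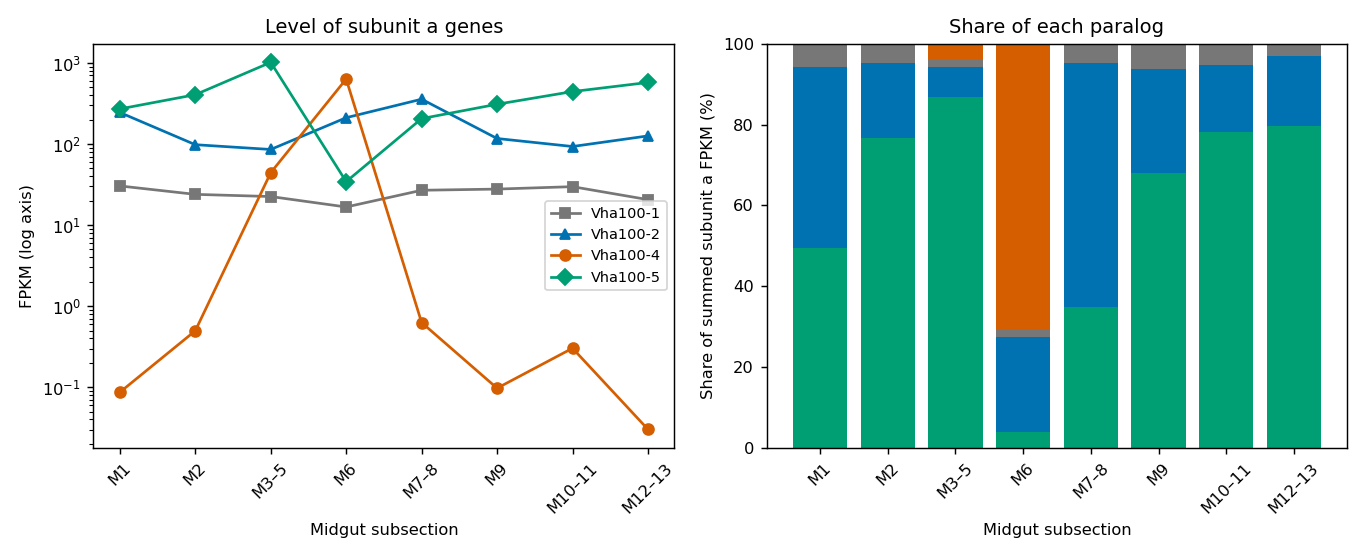
Left, FPKM of the 4 detected subunit a genes in each subsection, on a log axis with 1 library per point. Right, the share of each gene in the summed subunit a FPKM, as percent of that sum; *Vha100-4* (orange) takes 70.7% in M6 and 3.78% in M3–5, and *Vha100-5* (green) falls to 3.83% in M6.

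The summed level of subunit a was 546, 528 and 1169 FPKM from M1 to M3–5, 894 FPKM in M6, 590.0 FPKM in M7–8, and 454, 566 and 720.2 FPKM from M9 to M12–13, a 2.57-fold range. This was narrower than the 29.6-fold range of *Vha100-5* and the 4.17-fold range of *Vha100-2*, and wider than the 1.82-fold range of *Vha100-1*. On the authors' scale M3–5 and M6 were the highest libraries. Unlike the shares, the summed level and these ranges depend on how the libraries were scaled. The sum was not computed on other scales. With each library rescaled to the same summed FPKM, *Vha100-5* alone was at 748 FPKM in M3–5 and 1058 FPKM in M12–13. At each other site with more than 1 gene, the leading gene held at least 97.1% of the site's level in every subsection; that lowest share was of *VhaM9.7-b* in M9.

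M6 was next set against the mean of the other 7 subsections, on log2(FPKM + 1), with a 2-fold difference as the limit. One of the 23 detected *Vha* genes was past it on the higher side, *Vha100-4* with a difference of 8.24, against 5.82% of all detected entries. The lower side held *Vha100-5* (−3.53) and *VhaM9.7-a* (−1.04), 2 of 23, against 18.6% of all; without M1, M2 or M3–5 *VhaM9.7-a* did not reach the limit, nor did it on 2 other scales (−0.87 and −0.94). *Vha26* (0.93), *VhaSFD* (0.87) and *Vha16-1* (0.84) came closest to the limit from below, followed by *Vha100-2* (0.60), *Vha68-2* (0.57) and *Vha55* (0.51), and without M12–13 *Vha26* was past it (1.031). They encode subunits A, B, E and H of V1 and c and a of V0.

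The broad genes lay higher in M6 than broadly expressed genes at large on the scale used by the authors. Their median difference was 0.13, with 15 of 19 above 0, against a median of −0.44 over all 6003 broadly expressed entries, of which 25.2% were above 0, and 16 of the 19 were above that median; *VhaM9.7-c*, *Vha100-1* and *Vha100-5* were below it. The median of the *Vha* genes moved with single libraries, to 0.01 without M9, 0.07 without M7–8 or M10–11, and 0.25 to 0.27 without M1, M2 or M3–5, while that of all entries stayed between −0.45 and −0.43. It moved with the scaling as well: with each library divided by its median ratio the medians were 0.56 and −0.08, and with each rescaled to the same summed FPKM they were 0.59 and −0.07. Again 16 of 19 were above the median of all under either scale. The number past the 2-fold limit rose from 1 to 6 under both, with *Vha26*, *VhaSFD*, *Vha16-1*, *Vha100-2* and *Vha68-2* joining *Vha100-4*, and 9.53% and 9.36% of all detected entries were then past it.

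**Figure D3:**
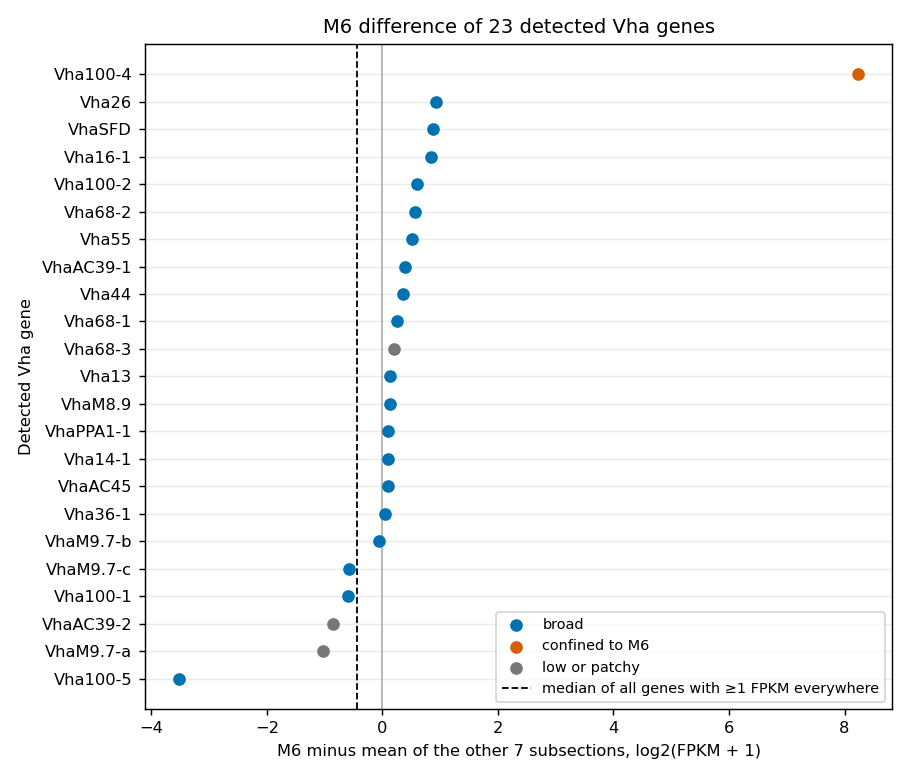
Difference between M6 and the mean of the other 7 subsections for the 23 detected *Vha* genes, in log2(FPKM + 1), colored by class; the dashed line is the median of all 6003 broadly expressed entries (−0.44). *Vha100-4* stands at 8.24 and *Vha100-5* at −3.53, and the remaining genes lie between −1.04 and 0.93; on the 2 other scales that were tried, 6 genes exceed 1.

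As other large complexes of the cell, the mitochondrial ATP synthase (6 genes by symbol, all broad) and the proteasome (48 listed, 36 detected, 32 broad) were read in the same way. Their median M6 differences were −0.43 and 0.04, against 0.13 for the *Vha* genes. No ATP synthase gene was above 0 and 17 of the 32 proteasome genes were. Against the median of all broad entries, 3 of 6 ATP synthase genes, 32 of 32 proteasome genes and 16 of 19 *Vha* genes were higher, so that a place above that median was not particular to the V-ATPase. Both comparison lists were drawn by symbol, so any subunit under another symbol was left out. The values are of the listed genes and need not hold for a whole complex. The lists were not tested against each other.

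Within the middle midgut, M6 was set against M7–8, its neighbor. *Vha100-4* was the single *Vha* gene past the limit on the higher side (8.61), against 4.19% of all detected entries. *Vha100-5* (−2.55) and *VhaAC39-2* (−2.07) were past it on the lower side, against 15.2% of all. The 19 broad genes had a median of 0.45 and all broad entries one of −0.43, and *Vha16-1* was at 0.9996, just short of the limit. The broad ATP synthase and proteasome genes had medians of 0.05 and 0.42. Above the median of all broad entries were 16 of 19 *Vha* genes, 4 of 6 ATP synthase genes and 32 of 32 proteasome genes. *Vha100-2* was at −0.76 and *Vha100-1* at −0.66. With the libraries divided by their median ratio, 9 *Vha* genes were past the higher limit against 7.65% of all, and the medians of the broad genes and of all broad entries were 0.93 and −0.01.

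The anterior midgut (mean of M1, M2 and M3–5) was set against the posterior (mean of M9, M10–11 and M12–13). Of the 23 detected *Vha* genes, *Vha13*, *Vha14-1*, *Vha36-1*, *VhaPPA1-1*, *VhaM9.7-a*, *VhaM9.7-b*, *VhaM9.7-c*, *VhaAC39-2* and *Vha100-4*, were at least 2-fold higher in the anterior, a count of 9 against 16.8% of all detected entries. On the lower side there were 0 of 23, against 15.7% of all. *Vha14-1* (1.82) and *VhaM9.7-b* (1.75) had the highest differences among broad genes, and *Vha68-2* (−0.55) and *Vha44* (−0.51) the lowest. The difference of *Vha100-4* (1.88) came from M3–5, and without that subsection it was 0.16. *VhaAC39-2* (1.12) likewise fell short of the limit without M1, at 0.56. Rescaled to the same summed FPKM, 1 *Vha* gene was past the higher limit, *Vha100-4*, and 10 were past the lower one, against 2.91% and 39.0% of all detected entries.

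This comparison moved with transcript length. The broad genes past the limit have short transcripts: 659 nt for *Vha14-1*, 823 nt for *Vha13*, 957.5 nt for *VhaM9.7-b*, 848 nt for *VhaM9.7-c*, 1064 nt for *Vha36-1* and 1350.0 nt for *VhaPPA1-1*. The genes of subunits A, B, C, E and H have transcripts of 2269 to 2693 nt, and each of their leading genes was between −0.55 and −0.25. Across the 19 broad genes Spearman's rho between length and the difference was −0.74, and across 5886 broad entries with a length it was −0.74 as well. Against the trend of detected genes with length, 14 of the 19 (73.7%) and 56.7% of all broad entries lay above it, among the 14 them *Vha16-1*, *Vha100-1*, *Vha100-2* and *Vha100-5*, the broad genes with the longest transcripts. These are descriptions across genes of the same 6 libraries, and length was taken from a later annotation. The part of length in the *Vha* pattern was not tested beyond removing the trend, after which *Vha100-4* was the single gene past the limit, against 7.40% of all detected entries, and *Vha14-1*, *VhaM9.7-b* and *VhaPPA1-1* were at 0.91, 0.998 and 0.90.

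**Figure D4:**
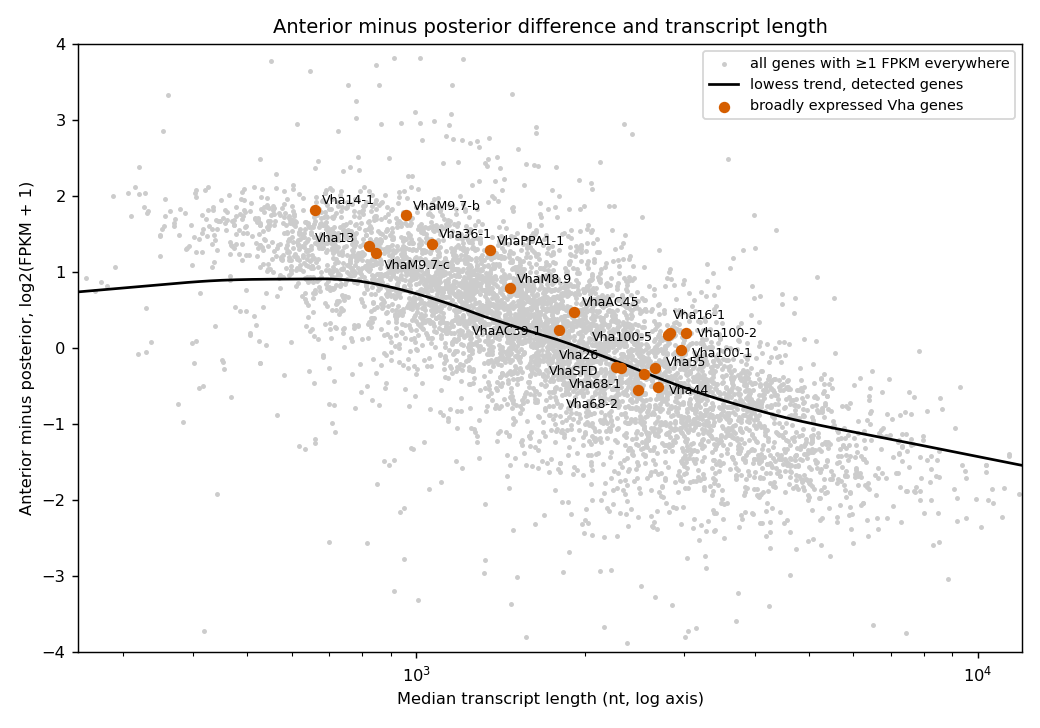
Anterior minus posterior difference in log2(FPKM + 1) against the median transcript length in nt (log axis), for the 19 broad *Vha* genes (orange, named) and all broadly expressed entries with a length (grey; 69 lie outside the axes), with the lowess trend over detected genes in black. The *Vha* genes run from 1.82 for *Vha14-1* at 659 nt to −0.55 for *Vha68-2*, along the slope of the grey points; with libraries rescaled to the same summed FPKM all differences lie lower and those of 13 of the 19 are at or below 0.

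Scale mattered for this comparison as well. The median of the 19 broad genes was 0.19 and that of all broad entries 0.18. The former was 0.03 without M9, 0.26 without M1, 0.35 without M2 and 0.40 without M12–13. Rescaled to the same summed FPKM the medians were −1.001 and −0.87, with 6 of 19 *Vha* genes above 0 in place of 12, so that the direction of the family as a whole reversed with that scaling and stayed next to that of all genes. Those above 0 on that scale were *Vha14-1* (0.61), *VhaM9.7-b* (0.54), *Vha36-1* (0.17), *Vha13* (0.14), *VhaM9.7-c* (0.09) and *VhaPPA1-1* (0.09).

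Ratios between subunits of a library do not depend on its scale. *Vha13* over *Vha55*, the outer stalk over the catalytic ring, was 5.45, 5.75 and 4.16 from M1 to M3–5, 2.06 in M6, 1.62 in M7–8, and 1.58, 1.64 and 1.76 from M9 to M12–13. *Vha14-1* over *Vha55* was 3.55, 3.58 and 2.21 from M1 to M3–5, 1.001 in M6, 0.739 in M7–8, and 0.669, 0.745 and 0.736 from M9 to M12–13. Both ratios were lower in M6 than in any anterior subsection and lower again in each subsection behind it, over a 3.64-fold and a 5.35-fold range. *Vha36-1* over *Vha55* had a range of 3.63-fold. In contrast, the ratios of *Vha26*, *Vha68-2*, *Vha44* and *VhaSFD* to *Vha55*, genes with longer transcripts, ranged by 1.32-fold to 1.49-fold over the 8 subsections. In the V0 sector *VhaM9.7-b* over *Vha16-1* ranged by 4.61-fold, *VhaPPA1-1* over *Vha16-1* by 2.74-fold and *VhaAC39-1* over *Vha16-1* by 1.56-fold. The ratios were not corrected for the trend of the anterior minus posterior difference with length. At the length of *Vha13* that trend was 0.86, at that of *Vha14-1* 0.91 and at that of *Vha55* −0.38.

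**Figure D5:**
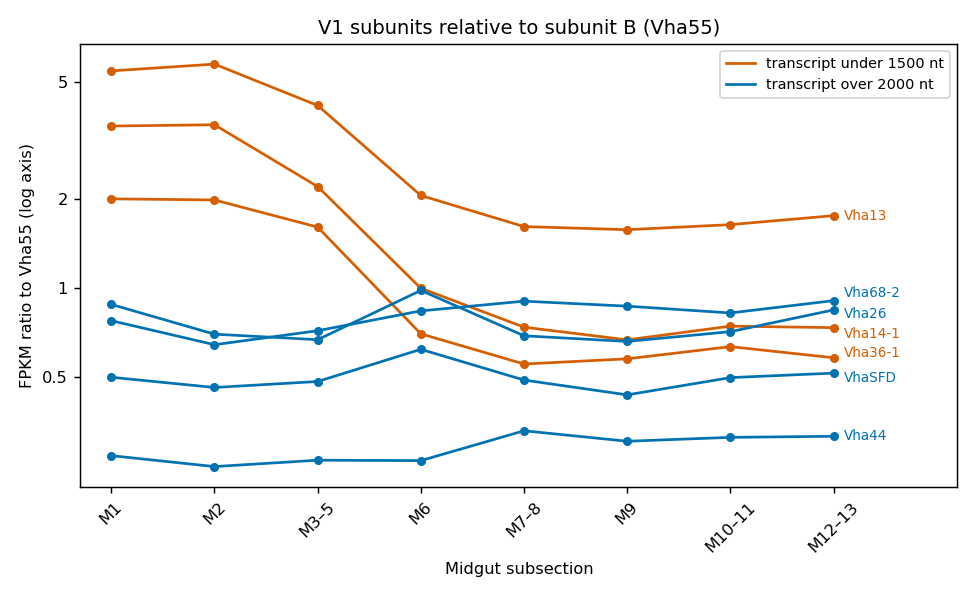
FPKM of 7 V1 subunit genes divided by that of *Vha55* in the same library, on a log axis; orange genes have transcripts of 659 to 1064 nt and blue genes of 2269 to 2693 nt. The orange ratios are higher in the anterior than behind it and range by 3.63-fold to 5.35-fold, and the blue ratios range by 1.32-fold to 1.49-fold.

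The subsection in which a broad gene was highest depended on the scale. On the authors' scale 6 were highest in M1, 6 in M3–5, 4 in M6 (*Vha55*, *Vha26*, *VhaSFD* and *Vha16-1*), 1 in M7–8 (*Vha100-2*) and 2 in M12–13 (*Vha44* and *Vha68-2*). Divided by the median ratio, 13 of the 19 had the same highest subsection, with 7 highest in M1, 2 in M3–5, 9 in M6 and 1 in M7–8. On the scale of equal summed FPKM, 5 of the 19 had the same one, with 14 highest in M12–13, 2 in M1 (*VhaM9.7-b* and *VhaM9.7-c*), and 1 each in M6 (*Vha14-1*), M7–8 (*Vha100-2*) and M10–11 (*Vha100-1*). *Vha100-5* was lowest in M6 on each of the 3 scales, and *Vha100-4* was highest there on each.

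The genes that were not detected are *Vha14-2*, *Vha16-2*, *Vha16-3*, *Vha16-4*, *Vha16-5*, *Vha36-2*, *Vha36-3*, *Vha100-3*, *VhaM9.7-d* and *VhaPPA1-2*. All belong to a site with a broad leading gene, and each of the 15 sites, accessory genes included, had at least 1 broad gene. *Vha14-2*, *Vha16-2* and *Vha16-3* were listed at 0 in every subsection. The means of the other 7 lay between 0.00148 FPKM for *Vha100-3* and 0.0827 FPKM for *Vha36-3*. An absence of RNA cannot be read from these values, since the number of reads behind them is unknown and reads shared by close paralogs can be split between them.

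The partner list, of genes that regulate the pump or move ions and bicarbonate with it, had 13 of 14 genes listed. On the M6 comparison *CAH1*, a cytosolic carbonic anhydrase, was past the limit on the higher side, and *Rbcn-3A*, *Nha1*, *CAH2* and *ClC-a* on the lower, with a median over the 13 of −0.26. Beside these counts of 1 and 4 of 13 stand 5.82% and 18.6% of all detected entries. *CAH1* was at 1.62, 1.91 and 29.8 FPKM from M1 to M3–5, 188 FPKM in M6, 166 FPKM in M7–8, and 4.75, 2.38 and 8.02 FPKM from M9 to M12–13. It shared with *Vha100-4* the high level in M6 and the step in M3–5, and differed in M7–8, where it stayed near its M6 level. *CAH2* was at 312, 47.7 and 6.33 FPKM from M1 to M3–5, 3.28 FPKM in M6, 69.0 FPKM in M7–8, and 32.9, 0.361 and 0.691 FPKM from M9 to M12–13, and was low in M6.

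Regulators of the pump did not have their highest level in M6. *Mitf*, the fly member of the MiT/TFE factors that are known to act on V-ATPase genes, was at 17.6, 21.9 and 22.4 FPKM from M1 to M3–5, 25.9 FPKM in M6, 35.6 FPKM in M7–8, and 28.3, 41.6 and 50.7 FPKM from M9 to M12–13. *Rbcn-3A*, a rabconnectin that takes part in V-ATPase assembly, was at 5.67, 5.62 and 6.39 FPKM from M1 to M3–5, 4.97 FPKM in M6, 18.9 FPKM in M7–8, and 24.2, 25.5 and 21.6 FPKM from M9 to M12–13. Its partner *Rbcn-3B* was between 3.11 FPKM in M2 and 20.6 FPKM in M12–13. On the anterior minus posterior comparison *Nha2* and *CAH2* were past the limit on the higher side and 7 of the 13 on the lower, both rabconnectins among them, against 16.8% and 15.7% of all detected entries. Median transcript lengths were 11139 nt for *Rbcn-3A* and 6390.5 nt for *Rbcn-3B*. Their differences were −1.84 and −1.86, and the length trend there was −1.50 and −1.14. *Nhe2* (−1.41, trend −0.95) and *ClC-c* (−1.20, trend −0.74) likewise had much of their difference in the trend. *Nha1* (−2.33, trend −0.36) and *ClC-a* (−2.42, trend −0.81) lay further below it. The count of 7 was not corrected for length, so its excess over 15.7% cannot be read apart from length. In M6 against M7–8 the counts were 0 higher and 5 lower of 13, against 4.19% and 15.2%. None of these counts was tested.

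Other genes in the table had a profile like that of *Vha100-4*. By Pearson's r over log2(FPKM + 1) in 8 subsections, among 6162 entries with at least 5 FPKM in some subsection, the 5 most alike were *CG33128* (0.987), *CG31446* (0.986), *CG11289* (0.982), *CG5149* (0.979) and *Corin* (0.967). *CG33128* was at 0.0310, 6.34 and 1089 FPKM from M1 to M3–5, 24758 FPKM in M6, 2.87 FPKM in M7–8, and listed at 0 from M9 to M12–13, and so had the M3–5 step as well. *CG31446* was at 1.299, 2.64 and 152 FPKM from M1 to M3–5, 1341 FPKM in M6, 1.78 FPKM in M7–8, and listed at 0 from M9 to M12–13. *CG5149* was present everywhere, between 19.98 FPKM in M1 and 105 FPKM in M6. *CG11289* and *Corin* met the limit of 5 FPKM in M6 alone, at 18.9 and 5.24 FPKM. Of the 6162 entries, 22 had at least 80% of their summed FPKM in M6, and 8, *Vha100-4* included, had a share at or above that of *Vha100-4*.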

How the data were processed

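Total RNA was extracted from 8 midgut subsections, and mRNA libraries without strand information were sequenced as 38-bp single-end reads, which the authors mapped with TopHat2 2.0.6 to the annotated genome (FlyBase release 5) and quantified with Cuffdiff 2.0.2. The authors gave FPKM, with upper-quartile scaling and corrected for multireads and fragment bias, and estimated dispersion blind to the groups. The deposited table also holds the lower and upper ends of a 95% interval and a status for each value. Upper-quartile scaling leaves the libraries with unequal sums, and the number of reads behind a value is unknown. Positions are those of the deposited table, counted from 1.

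The values were used as deposited, for 14207 entries; 1 unnamed entry was left out, and 143 entries with a status other than OK in some library were kept. Differences were taken on log2(FPKM + 1), so that changes of genes near or below 1 FPKM are understated. With 1 library per subsection no test was made and no p-value is given; a call is a difference of at least 1. Subunit sites were assigned by symbol. Transcript length was the median over a gene's transcripts in annotation BDGP6.54 of Ensembl release 115, joined by identifier for 13635 entries and by symbol for 171, and none of the 33 *Vha* genes lacked one. A lowess curve over detected genes, with a smoothing share of 0.3, gave the trend on log2 length. Alternatives were a pseudocount of 0.1 FPKM, other limits, 2 other scalings, the entries with a status other than OK left out, removal of the length trend and each subsection left out in turn. The code was tested on simulated data. Named genes are all *Vha* genes, the partner list and the 5 genes most like *Vha100-4*. The members and lists were chosen with earlier results of these data known. Promoter motifs were not analysed here. Python 3.11.15, numpy 2.4.6, pandas 2.3.3 and statsmodels 0.14.6 were used.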

Additional observations from a re-analysis of the deposited data

How the results depend on the processing

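*Vha100-4* stayed at least 2-fold higher and *Vha100-5* at least 2-fold lower in M6 under all 15 alternatives of that comparison. Among these, other limits on summed FPKM and leaving out entries by status cannot change a gene's own difference. *Vha100-4* was also classed by its share in M6, so its call there is no separate support. The classes kept 19 broad genes (18 at a limit of 5 FPKM), 10 not detected (12 at a summed FPKM under 10) and 1 confined to M6 (0 at a limit of 95%). Rescaled to the same summed FPKM, 6 *Vha* genes were higher in M6, the median M6 difference was 0.59, 1 gene was higher in the anterior, 10 were lower, and the median anterior minus posterior difference reversed to −1.001. Divided by the median ratio, 6 genes were higher in M6 with a median of 0.56, and 9 were higher in M6 than in M7–8. With the length trend removed, 4 genes were higher in M6, against 8.57% of all detected entries. The median M6 difference was then 0.53 for the broad *Vha* genes and −0.13 for all broad entries. In the anterior 1 gene was higher, against 7.40% of all, and these medians were 0.48 and 0.11. In M6 over M7–8 there were 4 genes, against 5.6% of all. Fitting that trend over broadly expressed genes alone was an alternative chosen after seeing the data, like the highest subsection on other scales. It gave 4 genes higher in M6, 1 in the anterior and 5 in M6 over M7–8. Beside these stand 10.2%, 6.83% and 6.48% of all detected entries. The median M6 difference was then 0.64, against −0.02 for all broad entries. A pseudocount of 0.1 FPKM gave 2 genes higher in M6 than in M7–8, against 6.77% of all detected entries. Leaving out 1 subsection at a time gave 1 to 2 genes higher in M6, against 5.67% to 6.71% of all detected entries. *Vha26* passed the limit without M12–13, at 1.031. *VhaM9.7-a*, at −1.04, lost its call without M1, M2 or M3–5. The median M6 difference was 0.01 to 0.27 and the median anterior minus posterior difference 0.03 to 0.40 with 1 subsection left out. *VhaAC39-2* lost its anterior call without M1 and *Vha100-4* without M3–5. Of 214 values recomputed, 1 median reversed. Among the differences of single genes, 1 lost and 13 gained a call. Another 27 counts or medians moved by more than 1.5 times or 0.25 on the log2 scale. The other 172 did none of these. They include values that the alternative could not change. They also include counts that moved less although a gene lost its call, such as the anterior count without M1.

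No paired analysis was possible because each subsection had 1 library. The upper-quartile scale, the length trend and the lower depth of M6 limit every comparison of levels between libraries. Shares within subunit a and ratios within a library do not depend on the scale. The ratios between genes of unlike transcript length were not corrected for the length trend. Low values, such as those of the 10 genes not detected, rest on an unknown number of reads.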
